A study of Mus musculus with 778 samples.

Results

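The 7 genes described here, Cd9, Cd81, Izumo1r, Astl, Itpr1, Trpm7 and Cacna1h, act in the oocyte at fertilization and egg activation. They were chosen by name, and all 7 were found among the 23201 genes of the count table. The RNA of single mouse oocytes was sequenced with unique molecular identifiers (UMIs), tags that mark each cDNA molecule so that amplified copies are counted once. The table holds 223 oocytes of wild type female ICR mice that were washed and picked one by one, at 5 stages of growth defined by diameter. Non-growing oocytes (NGO, 46 cells) measured less than 20 μm and came from mice 3 to 4 days old. Growing oocytes and fully-grown oocytes came from mice 3 to 4 weeks old, with 51 cells of 30 to 45 μm (GO1), 26 cells of 50 to 55 μm (GO2), 44 cells of 60 to 65 μm (GO3) and 56 fully-grown cells over 70 μm (FGO). Stage and mouse age cannot be told apart between NGO and the other stages.

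The level of a gene is its CPM, the number of its UMIs in every 1000000 UMIs of the pooled oocytes of a stage. CPM is a share and not an amount per oocyte. The paper reports more mRNA per oocyte, measured against spike-in RNA, in GO1 than in NGO. A lower CPM after NGO therefore need not mean fewer transcripts in an oocyte, and amounts per oocyte were not analysed here. The cells came from 4 sequencing libraries, but the name of a cell gives its stage and not its library. A stage is therefore 1 pooled sample, and no test between stages was possible. How the stages were divided among the libraries is not known, so differences between stages cannot be told apart from differences between libraries. Intervals in brackets are exact 95% intervals that cover counting error only, not the spread between oocytes, mice or libraries. A gene is said to rise or fall between stages when the ratio of its levels was 2 or more and the larger level was no less than 10 CPM, which 6 of the 7 genes attained in some stage. Stage totals ran from 24976634 to 64311908 UMIs, and single oocytes held between 22279 and 3898137. The 10 deepest oocytes held 80.4% of the GO1 UMIs and 73.2% of the GO2 UMIs, beside 42.6% to 49.7% in NGO, GO3 and FGO, so the GO1 and GO2 levels rest on few cells, and the median over oocytes is given beside each member's level. All 9 oocyte markers examined were above 10 CPM in every stage. The summed level of 10 granulosa cell markers lay between 14.96 and 38.8 CPM. The highest of them was Nr5a2 in NGO, GO3 and FGO (6.91 CPM in NGO, 14.5 in GO1). In GO1 and GO2 it was Cyp19a1 (1.11 CPM in NGO, 16.3 in GO1). Inha lay between 1.47 and 6.09 CPM and Fshr between 1.52 and 5.02. Inhba, Amhr2, Wt1 and Fst stayed at 1.67 CPM or less, Amh at 0.112 CPM or less and Foxl2 at 0.233 CPM or less. The summed level of 9 stromal and theca markers lay between 1.05 and 8.65 CPM. That of 9 blood and endothelium markers lay between 9.13 CPM in NGO and 50.5 in GO3, mostly Pecam1, at 4.60 CPM in NGO and 26.7 to 48.8 in the other stages, while the 4 hemoglobin genes of that list were at 0 in every stage, which allows up to 0.120 CPM. The part of other cells in the members' values was not tested.

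At fertilization the sperm first crosses the zona pellucida, then binds and fuses with the oocyte plasma membrane. IZUMO1R, also called JUNO or FOLR4, is the oocyte receptor for the sperm protein IZUMO1, and the tetraspanins CD9 and CD81 organise the membrane at which fusion takes place. The fused sperm sets off calcium waves by release through the inositol trisphosphate receptor ITPR1, and the stores are refilled in part through the channels TRPM7 and CACNA1H. The calcium rise makes cortical granules release ovastacin, the protease encoded by Astl, which cleaves ZP2 and so hardens the zona against further sperm. The mRNAs for these steps are present in the oocyte long before they are used.

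Of the 7 genes, 5 had an entry in the RefSeq promoter table of the mouse build GRCm38.p6, with 2 entries for Astl. The 250 bases before the start site are shown for Astl, Izumo1r and Cd9, the zona protease, the sperm receptor and a fusion tetraspanin, 1 gene for each of these tasks. Capitals mark E-boxes, CANNTG, the motif bound by basic helix-loop-helix factors such as the oocyte factor FIGLA. They lie at chr2:127341386-127341635 on the plus strand for Astl (its second entry), at chr9:14903768-14904017 on the minus strand for Izumo1r and at chr6:125494761-125495010 on the minus strand for Cd9, all written 5′ to 3′ on the strand of the gene.
Astl: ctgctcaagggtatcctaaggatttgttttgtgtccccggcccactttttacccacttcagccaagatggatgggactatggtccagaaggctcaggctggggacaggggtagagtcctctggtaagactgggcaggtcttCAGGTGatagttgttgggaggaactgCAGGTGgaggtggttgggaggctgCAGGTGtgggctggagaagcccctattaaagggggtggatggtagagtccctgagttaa
Izumo1r: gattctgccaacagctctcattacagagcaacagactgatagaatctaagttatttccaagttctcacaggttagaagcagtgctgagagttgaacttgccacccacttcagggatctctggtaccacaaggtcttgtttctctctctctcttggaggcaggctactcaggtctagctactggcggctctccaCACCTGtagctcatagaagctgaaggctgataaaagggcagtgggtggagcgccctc
Cd9: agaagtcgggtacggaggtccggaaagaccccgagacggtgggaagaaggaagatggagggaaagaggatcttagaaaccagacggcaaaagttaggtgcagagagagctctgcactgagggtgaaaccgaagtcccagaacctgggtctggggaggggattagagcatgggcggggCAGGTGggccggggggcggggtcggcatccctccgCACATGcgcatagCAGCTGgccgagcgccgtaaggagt
The Astl window held 3 E-boxes, the last of which begins 59 bases before the start, and all read CAGGTG. The Izumo1r window held 1, 57 bases before the start, whose letters CACCTG are CAGGTG read on the other strand. The Cd9 window held 3, at 73, 38 and 25 bases, of which the first reads CAGGTG. Of all 32851 promoter windows of this length, 66.2% held at least 1 CANNTG and 17.2% at least 1 CAGGTG on either strand, while 81 windows, or 0.247%, held 3 or more CAGGTG. The first Astl entry held no E-box. Those of Cd81 and Trpm7 held 1 and 2, none of which read CAGGTG on either strand. Neither TAATTA, the core bound by homeobox factors such as NOBOX, nor TATAAA was found in any of the 6 windows. TAATTA occurs in 4.84% and TATAAA in 12.4% of all windows. Both shares for CAGGTG use letters found in the shown windows, and the count of 3 or more also uses the number found in the Astl window. They therefore cannot test whether the shown windows are unusual. A match describes letters in the window and no binding was measured here.

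Cd9 is encoded on chromosome 6 of NCBIM37, the build the study calls mm9, from 125410284 to 125444809 on the minus strand. It stood at 906 CPM in NGO (894 to 917), 307 in GO1 (301 to 314), 331 in GO2 (324 to 338), 619.6 in GO3 (613 to 627) and 749 in FGO (743 to 756). Over single oocytes the lowest, median and highest values were 359.5, 875 and 1201 CPM in NGO, 0, 199 and 534 in GO1, 13.99, 264 and 489 in GO2, 302, 633 and 849.5 in GO3 and 439.8, 739 and 959.6 in FGO. Cd9 was thus high at both ends of growth and low in GO1 and GO2, and the ranges of all neighbouring stages overlapped. From NGO to GO1 Cd9 fell 2.95-fold (2.88 to 3.02), and none of the 51 GO1 oocytes lay above the NGO median. After that its largest step was from GO2 to GO3. From GO2 to GO3 it was 1.87-fold higher (1.83 to 1.92), short of the limit, with all 44 GO3 oocytes above the GO2 median and none of the 26 GO2 oocytes above the GO3 median. That step passed the limit when every oocyte was given equal weight, at a log2 difference of 1.21, and when the 10 deepest oocytes of each stage were left out, at 1.43. FGO was 1.21-fold below NGO (1.19 to 1.23), and the middle 50% of the NGO and FGO oocytes overlapped.

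Cd81, on chromosome 7 from 150238644 to 150253839 on the plus strand, encodes another tetraspanin of the oocyte membrane. It had 32.3 CPM in NGO (30.1 to 34.6), 4.41 in GO1 (3.65 to 5.28), 4.88 in GO2 (4.06 to 5.83), 8.35 in GO3 (7.57 to 9.19) and 25.9 in FGO (24.7 to 27.2). Over oocytes the median and the highest value were 20.6 and 128.8 CPM in NGO, 0 and 117.2 in GO1, 2.76 and 13.7 in GO2, 6.93 and 21.2 in GO3 and 24.9 and 118.04 in FGO, and the lowest was 0 in every stage. The order of the stages was that of Cd9, with the same low in GO1 and GO2, whose intervals overlapped. Cd81 fell 7.31-fold from NGO to GO1 (6.02 to 8.95), where 3 of 51 GO1 oocytes were above the NGO median. It rose 3.10-fold from GO3 to FGO (2.79 to 3.46), where 49 of 56 FGO oocytes were above the GO3 median and none of the 44 GO3 oocytes was above the FGO median. With so few UMIs in GO1 and GO2, a difference between those stages was not detectable at this depth, with a ratio of 1.11 (0.853 to 1.44). FGO was 1.24-fold below NGO in the sums (1.14 to 1.35), a direction that turned when oocytes were weighted equally, at a log2 difference of 0.16.

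Cd81 is widely expressed outside the oocyte, and the summed stromal and theca markers were highest in NGO, at 8.65 CPM against 1.59 or less elsewhere. In the 21 NGO oocytes without a UMI of that list, Cd81 stood at 46.6 CPM (41.97 to 51.5), above the level over all NGO oocytes. The corresponding cells gave 3.90 CPM in GO1 (43 cells), 4.11 in GO2 (13 cells), 8.11 in GO3 (17 cells) and 34.3 in FGO (35 cells), past the same limits from NGO to GO1 and from GO3 to FGO. The summed granulosa markers ranged from 14.96 CPM in NGO to 38.8 in GO1. Oocytes without a UMI of that list gave 38.5 CPM of Cd81 in NGO (27.99 to 51.7, 6 cells), 12.8 in GO1 (4.14 to 29.8, 8 cells) and 55.9 in FGO (44.4 to 69.4, 5 cells), with 1 such cell in GO2 and 0 in GO3. Choosing oocytes without marker UMIs also favours shallow ones, and the part of other cells in the Cd81 levels was not tested.

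**Figure D1:**
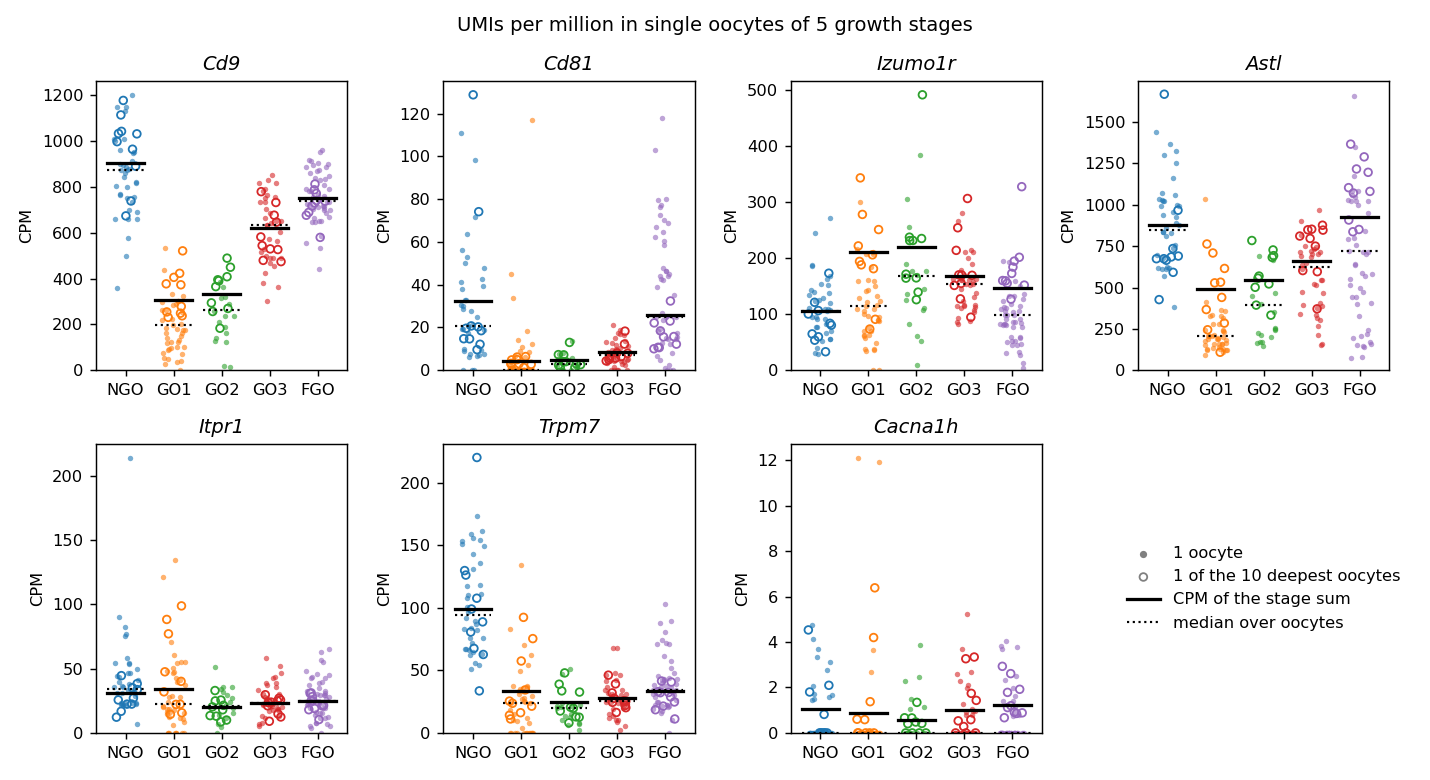
CPM of the 7 genes (vertical axes, linear) in each of the 223 oocytes by stage (horizontal axes). Filled points are single oocytes, open circles the 10 deepest of a stage, solid bars the CPM of the stage sum and dotted bars the median over oocytes. Cd9 and Cd81 dip in GO1 and GO2, Trpm7 is high in NGO alone, and the solid bar of Astl and Izumo1r in GO1 lies well above the dotted one.

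Izumo1r, listed as Folr4 in the annotation, lies on chromosome 9 from 14690258 to 14708395 on the minus strand. It had 105.2 CPM in NGO (101.2 to 109.3), 210.4 in GO1 (205 to 216), 221 in GO2 (215 to 227), 169 in GO3 (165 to 173) and 146.8 in FGO (143.8 to 149.7). Its lowest, median and highest values over oocytes were 29.4, 106.3 and 272 CPM in NGO, 0, 115.2 and 344 in GO1, 9.32, 168 and 492 in GO2, 82.96, 154.8 and 307 in GO3 and 3.77, 98.7 and 328 in FGO. In the sums the receptor was highest in GO2 and GO1, where the tetraspanins were lowest, but by the median, by equal weights and without the 10 deepest oocytes GO3 stood above GO1, and every pair of stages that follow each other in level overlapped in the middle 50% of oocytes. Between NGO and GO1 the receptor rose 2-fold (1.91 to 2.10), at the limit itself, and 28 of 51 GO1 oocytes were above the NGO median. The 10 deepest GO1 oocytes stood at 235 CPM and the other 41 at 109.5, against 113.2 in the 36 NGO oocytes outside the deepest 10. With oocytes weighted equally the difference from NGO to GO1 was 0.24 on the log2 scale, and without the deepest 10 it was -0.049, so this rise rests on the deepest GO1 oocytes. From NGO to FGO the sums gave a ratio of 1.39 (1.34 to 1.46), below the limit, and equal weights a log2 difference of -0.037.

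Astl is encoded on chromosome 2 from 127164375 to 127183387 on the plus strand. It stood at 879 CPM in NGO (868 to 891), 491 in GO1 (483 to 500.0), 543 in GO2 (534 to 552), 661 in GO3 (654 to 668) and 929 in FGO (921 to 936). Over oocytes the lowest, median and highest values were 385, 850 and 1668 CPM in NGO, 89.8, 207 and 1034 in GO1, 147.9, 397 and 784 in GO2, 153.3, 626 and 966 in GO3 and 75.2, 719 and 1659 in FGO. Astl was lowest in GO1, and each later stage was higher than the one before it, in the sums as in the medians, while the ranges of all stages overlapped. The sums put GO1 1.79-fold below NGO (1.75 to 1.83), short of the limit, although 1 of 51 GO1 oocytes lay above the NGO median and all 46 NGO oocytes above the GO1 median. Equal weights gave a log2 difference of -1.69 and the sums without the deepest 10 oocytes -2.27, both past the limit. From NGO to FGO the ratio was 1.06 (1.04 to 1.07), and equal weights turned the direction, at a log2 difference of -0.29. Single FGO oocytes spanned the widest range of the 5 stages, from 75.2 to 1659 CPM.

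Itpr1, on chromosome 6 from 108163112 to 108501103 on the plus strand, encodes the calcium release channel of the endoplasmic reticulum. It had 30.8 CPM in NGO (28.7 to 33.04), 34.4 in GO1 (32.2 to 36.7), 19.8 in GO2 (18.1 to 21.6), 23.2 in GO3 (21.8 to 24.5) and 24.5 in FGO (23.3 to 25.7). Its lowest, median and highest values over oocytes were 6.91, 34.4 and 214 CPM in NGO, 0, 22.3 and 134.7 in GO1, 0, 20.8 and 51.02 in GO2, 5.19, 23.5 and 57.9 in GO3 and 0, 25.1 and 65.0 in FGO. Itpr1 had the smallest ratio between its highest and lowest stage of the 6 genes above 10 CPM, passed the limit in none of the 5 comparisons, and its ranges overlapped between all stages. Its largest step was from GO1 to GO2, 1.74-fold lower (1.56 to 1.94), which dropped to a log2 difference of -0.23 without the 10 deepest oocytes. NGO and GO1 kept no fixed order, with a ratio of 1.12 (1.01 to 1.23) in the sums and a log2 difference of -0.32 with equal weights.

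Trpm7, on chromosome 2 from 126617301 to 126701966 on the minus strand, encodes a channel for divalent cations with a kinase domain. It stood at 99.3 CPM in NGO (95.4 to 103.3), 33.2 in GO1 (31.05 to 35.4), 24.8 in GO2 (22.9 to 26.9), 27.9 in GO3 (26.5 to 29.4) and 33.9 in FGO (32.5 to 35.3). Over oocytes the lowest, median and highest values were 33.6, 94.2 and 220.2 CPM in NGO, 0, 23.7 and 134.7 in GO1, 2.18, 20.0 and 51.3 in GO2, 2.13, 25.8 and 68.3 in GO3 and 0, 34.3 and 102.9 in FGO. NGO stood alone, with its middle 50% of oocytes above that of FGO, the next stage in level, and the other 4 stages lay close together. Trpm7 fell 2.99-fold from NGO to GO1 (2.77 to 3.23), and all 46 NGO oocytes were above the GO1 median. Unlike Cd9 and Cd81 it was not back near its NGO level in FGO, 2.93-fold lower (2.77 to 3.11), where 1 of 56 FGO oocytes exceeded the NGO median.

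Cacna1h encodes the T-type calcium channel CaV3.2 and lies on chromosome 17 from 25511230 to 25570728 on the minus strand. In order of growth it gave 26, 24, 14, 50 and 78 UMIs, or 1.03 CPM (0.674 to 1.51), 0.897 (0.575 to 1.33), 0.561 (0.306 to 0.940), 1.004 (0.745 to 1.32) and 1.21 (0.959 to 1.51). The median oocyte had none in every stage, and the highest value of a cell was 4.74, 12.1, 3.89, 5.25 and 4.04 CPM in the same order. The intervals overlapped between stages that follow each other, so no difference between these was detectable at this depth, while those of GO2 and FGO lay apart, both far under 10 CPM. The ratio of FGO to NGO was 1.18 (0.746 to 1.91).

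Counted together, 3 members fell from NGO to GO1, Cd9, Cd81 and Trpm7, and 1 rose, Izumo1r. Of the 8527 genes at 10 CPM in either stage, 25.7% fell and 20.6% rose there, so changes at this step were common. From GO1 to GO2 no member passed the limit, beside 0.109% of genes that rose and 3.03% that fell. From GO2 to GO3 again no member passed it, beside 3.34% that rose and 1.01% that fell. From GO3 to FGO 1 member rose, Cd81, beside 2.41% of genes that rose and 3.54% that fell. From NGO to FGO 1 member fell, Trpm7, beside 11.3% of genes that rose and 16% that fell. Comparisons that share a stage share its oocytes, so these counts are not independent. Scaled by TMM or by DESeq2 size factors, the log2 differences of all genes shifted by between -0.15 and 0.19, and no member gained or lost a call.

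**Figure D2:**
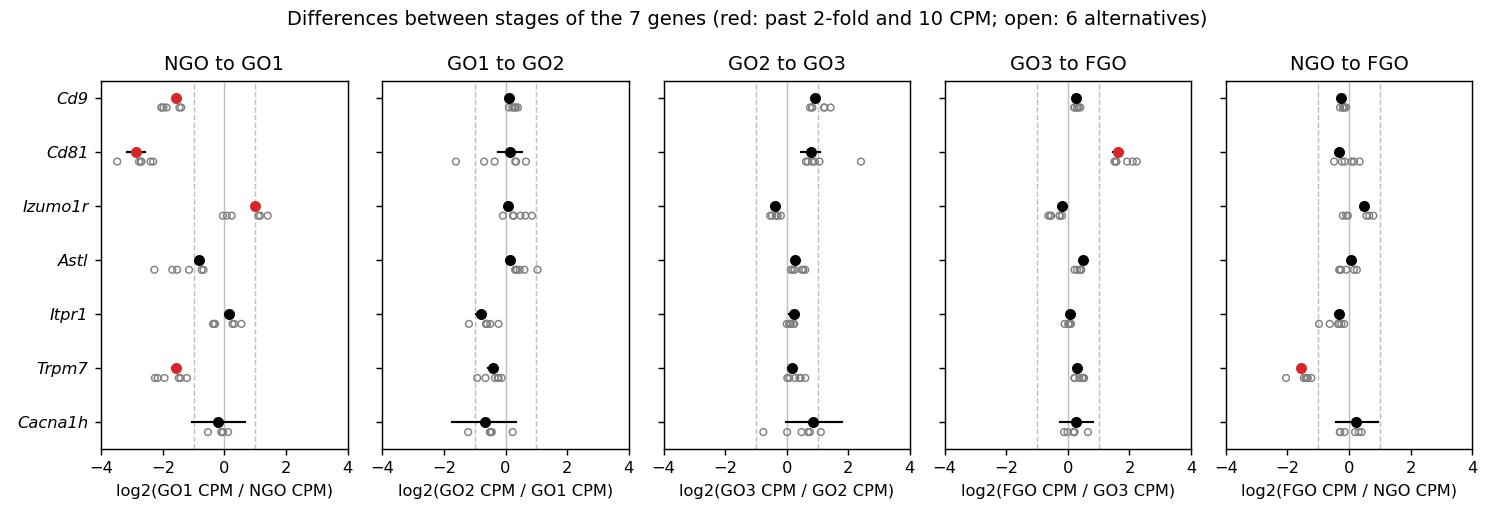
Log2 ratio of CPM between stages (horizontal axes) for the 7 genes in 5 comparisons. Large points with bars are the sums with exact 95% counting intervals, red where the 2-fold and 10 CPM limits were passed, open circles the 6 other ways of scaling or weighting oocytes, and dashed lines mark 2-fold. From NGO to GO1 the circles of Izumo1r and Astl lie on both sides of a dashed line, while those of Cd9 and Trpm7 all stay beyond it.

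Within a stage, oocytes of different depth did not carry the members alike. In GO1 the 10 deepest oocytes had 2.90 times the Astl level of the others (2.72 to 3.10), at 564 against 194 CPM, and 2.15 times the Izumo1r level (1.97 to 2.34). In GO2 Astl was at 596 against 398 CPM and Cd9 at 366 against 236. Cd9 was also higher in the deepest GO1 oocytes, at 329 against 219 CPM. Its rank correlation with the UMIs of a cell was 0.61 in GO1 and 0.65 in GO2. It was 0.34 in NGO, 0.10 in GO3 and 0.05 in FGO. In FGO the deepest oocytes had more Astl, 1106 against 753 CPM, and more Izumo1r, 188 against 106.03, but less Cd81, 17.8 against 34, and less Trpm7, 27.7 against 40.0. NGO differed from the later stages in that Astl and Izumo1r were lower in the deepest oocytes, at 798 against 939 CPM and 94.4 against 113.2. Itpr1 differed by at most 1.32-fold between the groups in any stage. Over single NGO oocytes its CPM nevertheless fell with depth, with a rank correlation of -0.68 with the UMIs of a cell. That value was -0.28 when all oocytes were thinned to the same number of UMIs. In the later stages the unthinned values lay between -0.19 and 0.097. The libraries of these oocytes are not known, so their part in these ratios was not tested.

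**Figure D3:**
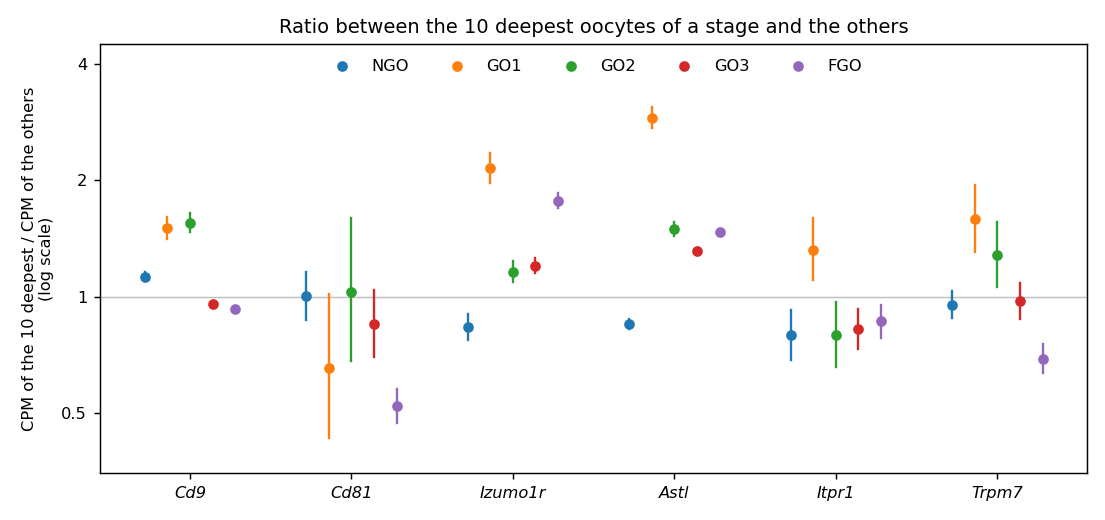
Ratio of the CPM of the 10 deepest oocytes of a stage to that of all others (vertical axis, log scale) for the 6 genes above 10 CPM, coloured by stage, with exact 95% counting intervals as bars. Astl and Izumo1r lie above 1 in the 4 later stages and below 1 in NGO, with the highest ratio, 2.90, for Astl in GO1.

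Astl and Izumo1r also varied together among single oocytes once growth had begun. The rank correlation of their CPM was 0.17 over the 46 NGO oocytes, 0.58 in GO1 (51 oocytes), 0.75 in GO2 (26), 0.54 in GO3 (44) and 0.62 in FGO (56). With the UMIs of a cell, Izumo1r had rank correlations of -0.11, 0.26, 0.63, 0.24 and 0.66 in order of growth, and Astl -0.05, 0.15, 0.79, 0.49 and 0.58. With every oocyte thinned to 20000 UMIs the correlations of Astl with Izumo1r were -0.02, 0.41, 0.53, 0.33 and 0.28. These figures describe oocytes that share libraries and a common total, and carry no p-value. For Cd9 and Cd81, alike in the order of the stages, the values lay between -0.11 and 0.26, and between -0.32 and 0.18 in thinned oocytes.

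**Figure D4:**
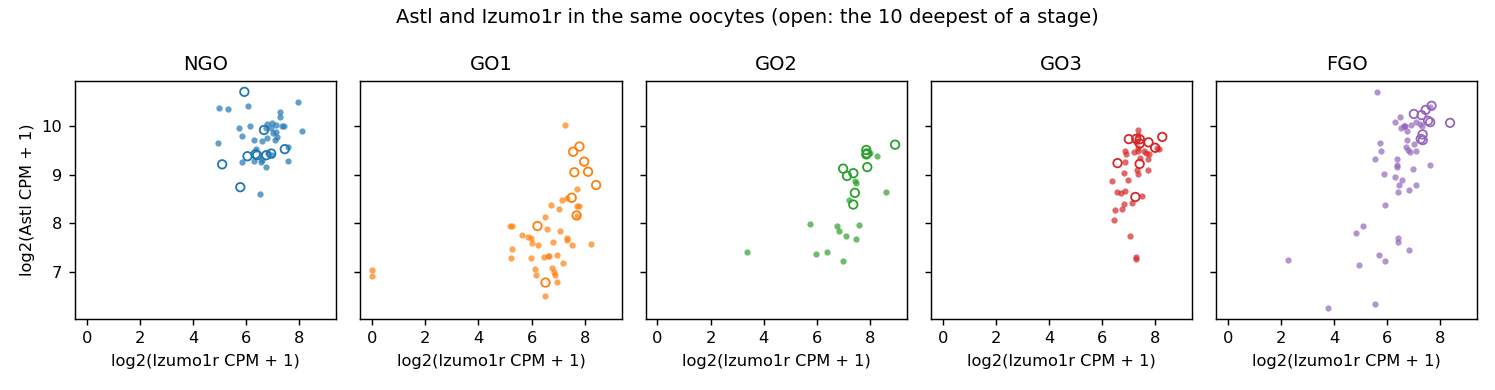
Astl (vertical axis) against Izumo1r (horizontal axis), both as log2(CPM + 1), in each oocyte of the 5 stages, with the 10 deepest of a stage as open circles. The points form a cloud without slope in NGO and slope upward in the later stages, with rank correlations of 0.17 in NGO and between 0.54 and 0.75 after it.

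The stage profiles of the members were compared with those of the 8670 genes that reached 10 CPM in some stage, by the root mean square difference of centred log2(CPM + 1) values over the 5 stages. Nearest to Cd9 were Cct4, a subunit of the TRiC chaperonin (0.0596), Rpp40, a subunit of ribonuclease P (0.0699), and the lysosomal protease gene Ctsb (0.0719). Nearest to Cd81 were Sapcd2 (0.120), Afap1 (0.123) and Cad, which encodes an enzyme of pyrimidine synthesis (0.168). Izumo1r lay nearest to Orc6, a subunit of the origin recognition complex (0.0239), Glrx, which encodes glutaredoxin (0.0432), and Tbc1d15 (0.0459). Astl lay nearest to 2310011J03Rik (0.0336), Borcs7 (0.0493) and Galnt11 (0.0561). Itpr1 lay nearest to Rev3l, the catalytic subunit of DNA polymerase zeta (0.0395), Tdrd1, a piRNA pathway gene (0.0433), and Ice2 (0.0463). Trpm7 lay nearest to Cep128 (0.0278), the ribosomal protein gene Rps26, whose near-identical copies make its count uncertain (0.0412), and Eef2, translation elongation factor 2 (0.0500). For comparison, the median difference over all genes lay between 0.456 for Itpr1 and 1.05 for Cd81. Among the members, Cd9 and Astl were the closest pair, at 0.303, and Cd81 and Izumo1r the most distant, at 1.47. All these profiles are those of the stage sums. Without the 10 deepest oocytes, the GO1 level was 109.5 CPM instead of 210.4 for Izumo1r and 194 instead of 491 for Astl. The distances were not computed without those oocytes.

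The members were set beside 5 lists of genes chosen by name for the same steps, and a place in a list does not show a role in them. Of 13 other genes listed as possible fusion partners on the oocyte, 4 reached 10 CPM in NGO or GO1. Of these 1 rose, where 20.6% of all genes tested rose and 25.7% fell. It was Itga6, an integrin subunit of laminin receptors, from 8.49 to 54.5 CPM, 6.42-fold (5.56 to 7.44). Of 15 genes for cortical granule exocytosis, the route by which the Astl product leaves the cell, 11 were tested and 5 fell from NGO to GO1, with none rising, beside 25.7% and 20.6% of all genes. Among them Vamp3, a vesicle SNARE, fell 3.96-fold (3.67 to 4.27), the chaperone gene Calr 3.29-fold (3.20 to 3.38), Nsf, which takes SNARE complexes apart, 2.99-fold (2.86 to 3.13) and the vesicle GTPase gene Rab3a 2.74-fold (2.53 to 2.96). The median log2(CPM + 1) difference of the 11 genes was -0.86, beside -0.14 over all genes tested.

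Of 29 genes in the table for calcium stores and influx, 14 were tested from NGO to GO1. Of these 4 rose and 5 fell, beside 20.6% and 25.7% of all genes. Their median was 0.34 beside -0.14 in the sums but was negative with equal weights, so its sign depends on how oocytes are weighted. Stim2, a calcium sensor of the endoplasmic reticulum, rose from 28.6 to 218 CPM, 7.62-fold (7.05 to 8.24), and Atp2a2, the SERCA pump that refills the store, rose 3.51-fold (3.27 to 3.77). Plcg2, a phospholipase that makes inositol trisphosphate, fell 6.73-fold (5.93 to 7.66) and the G protein gene Gna11 6.06-fold (5.16 to 7.16). Itpr2, the receptor paralog of Itpr1, was at 62.4 CPM in NGO and 194 in GO1, past the limit that Itpr1 did not pass, and is named here after its values were seen.

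Of 25 genes that read the calcium signal or end metaphase II arrest, 16 were tested, of which 3 rose and 5 fell from NGO to GO1, shares near the 20.6% and 25.7% of all genes, with a median of 0.49 beside -0.14. Both calcineurin subunit genes named by the rule fell, Ppp3r1 by 3.36-fold (3.12 to 3.62) and Ppp3ca by 3.14-fold (2.73 to 3.63). Prkcd, a protein kinase C, fell 3.36-fold (2.99 to 3.79), and Fzr1, an activator of the anaphase-promoting complex, fell 2.97-fold (2.85 to 3.09). Of 8 zinc genes 5 were tested, and 1 rose and 1 fell, with a median of 0.45 beside the same background. They were the plasma membrane importer Slc39a10, up 6.50-fold (6.15 to 6.87) to 375 CPM, and Slc39a7, which releases zinc from the endoplasmic reticulum, down 2.56-fold (2.23 to 2.95). From NGO to FGO 11.3% of all genes tested rose and 16% fell. The lists gave 1 rise and 0 falls among 4 fusion partners tested, 0 and 4 among 11 exocytosis genes, 3 and 3 among 14 for calcium stores, 2 and 3 among 16 for calcium decoding and 1 and 0 among 5 for zinc.

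**Figure D5:**
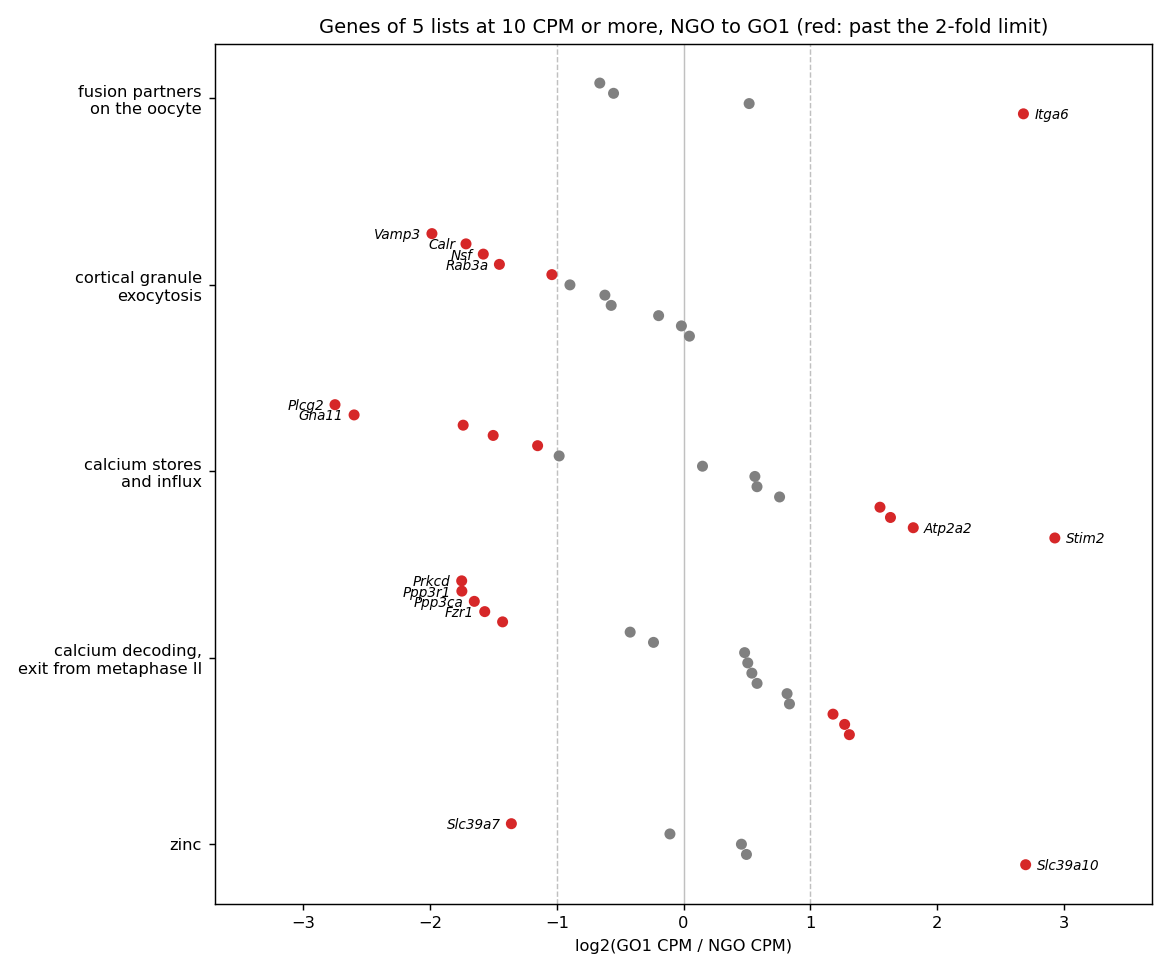
Log2 ratio of GO1 to NGO CPM (horizontal axis) for the genes of the 5 lists that reached 10 CPM in either stage, 1 point per gene, spread vertically within a list for legibility. Red points are past the 2-fold limit (dashed lines). The red points of the exocytosis list all lie on the side of NGO, and those of the other lists with more than 1 red point lie on both sides.

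As a control, 11 sperm-side genes were looked up. Of these 1, Spam1, a sperm hyaluronidase gene, reached 10 CPM, at 0.516, 11.4, 9.89, 7.53 and 2.88 CPM in order of growth, from 13, 304, 247, 375 and 185 UMIs. It rose 22-fold from NGO to GO1 (12.7 to 41.8). The sperm receptor ligand gene Izumo1 and 9 others stayed at or below 0.714 CPM in every stage. In the annotation, Cd9, Cd81, Trpm7 and Cacna1h each overlap 1 gene on the other strand. Whether UMIs were counted by strand is not given in the sources used here, but the partners of Cd81 and Cacna1h in the table were at 0.0622 CPM or less, and those of Cd9 and Trpm7 were not analysed here.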

How the data were processed

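From trimmed reads that Tophat placed on the mm9 transcriptome, the authors deposited de-duplicated UMI counts per gene and cell, without normalization, for the oocytes that passed their filter. The column names of this table give stage and cell number, with neither library nor barcode, so barcodes shared between libraries could not be counted, and each stage was treated as 1 sample. The members and gene lists were chosen with earlier results of these data known.

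UMIs were summed by stage, and CPM, the size rule (2-fold and 10 CPM), exact Poisson intervals for sums and exact intervals of ratios from the binomial split were computed, both at 95%. The rule was tried on simulated stage sums with planted changes larger than the limit. Those sums held counting error only, so the trial cannot show how the rule fares with the spread between oocytes. In order of growth the stages held 25198132, 26752883, 24976634, 49822036 and 64311908 UMIs, and 3 UMIs are the limit that a count of 0 allows. Named genes were the 7 members, the 4 genes of each list with the largest change from NGO to GO1 past the rule, the highest sperm-side gene and the 3 genes nearest to each member. The 9 alternatives were DESeq2 1.42.0 size factors, edgeR 4.0.16 TMM factors (both used for scaling only), equal weights (the mean over oocytes), sums without the 10 deepest oocytes, 26 oocytes per stage, oocytes thinned to 20000 UMIs, no CPM minimum, a minimum of 50 CPM and a limit of 1.5-fold. Positions are from GENCODE on NCBIM37 (the same assembly as mm9), counted from 1, and promoter windows from RefSeq on GRCm38.p6. The oocytes were picked by hand, and no doublet caller was run. Protein features were not analysed here, nor were the chromatin and DNA methylation libraries of the study. R 4.3.3, Python 3.11.15, scipy 1.17.1, matplotlib 3.10.9, pandas 2.3.3 and numpy 2.4.6 were used.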

Additional observations from a re-analysis of the deposited data

How the results depend on the processing

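Of the members' calls, the falls of Cd9 and Trpm7 from NGO to GO1 and of Trpm7 from NGO to FGO held under all 9 alternatives, while both calls of Cd81 held under 8 and were lost at a minimum of 50 CPM, which left 0 members higher in FGO than in GO3. The number of members higher in GO1 than in NGO fell from 1 to 0 with equal weights, without the 10 deepest oocytes and in thinned oocytes, and without the deepest the log2 difference of Izumo1r was -0.049. Members higher in GO2 than in GO1 went from 0 to 1 without the deepest oocytes (Astl), and members lower there from 0 to 1 with 26 oocytes per stage or a limit of 1.5-fold (Itpr1). Members higher in GO3 than in GO2 went from 0 to 1 with equal weights, without the deepest oocytes or at 1.5-fold (Cd9), and to 2 in thinned oocytes (Cd9 and Cd81). Astl became lower in GO1 than in NGO with equal weights, without the deepest oocytes, with 26 oocytes per stage, in thinned oocytes and at 1.5-fold.

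For the gene lists, equal weights and sums without the deepest oocytes were added after the data were seen. With equal weights, fusion partners gave 2 higher and 1 lower in GO1 than in NGO and 0 higher in FGO than in NGO, calcium decoding 1 higher in FGO, and zinc 2 higher in GO1 and 1 lower in FGO. Without the deepest oocytes, fusion partners gave 1 lower in GO1, calcium decoding 1 higher and 8 lower in GO1, and zinc 1 lower in FGO. The cause of these shifts was not tested. No paired analysis was possible because the stages hold 1 pooled sample each. Depth limits Cacna1h in every stage and Cd81 in GO1 and GO2.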
